A study of Mus musculus with 4 samples.

Results

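The fibroblast growth factor (FGF) genes described here are 9 of the 30828 genes listed in the single-cell RNA-seq matrices of the neonatal mouse testis. They are the receptors Fgfr1, Fgfr2 and Fgfr3, the ligands Fgf2 and Fgf9, the inhibitors Spry1, Spry2 and Spry4, and the adaptor Frs2. The rule took the rows of both matrices that carry these symbols, and all 9 were found. The genes were chosen by their levels across cell classes and between the genotypes in these same data. Their values are therefore given as a description, and no test was made.

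Cnot3-cKO mice carried Cnot3flox/flox with Ddx4-creER, a tamoxifen-inducible Cre driven by a germ cell promoter, and controls were labelled wild-type, where the methods name Cnot3flox/flox controls for other assays and give no genotype for those sequenced here. Both received 4OHT, with labels that start at day 1 after birth and end at day 1 or 2 in the control samples and day 3 or 4 in the Cnot3-cKO samples, while the methods give 1 schedule for all. Testes were taken at day 8 and CD9+/THY1+ cells were sorted, and neither the strain nor the number of animals is stated. The 2 samples of a genotype are merged in 1 matrix, so each genotype is 1 library here and differences between genotypes have no replicate check.

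In FGF signaling, a secreted ligand binds a receptor tyrosine kinase together with heparan sulfate, and the adaptor FRS2 links the receptor to the Ras-MAPK cascade. Sprouty proteins are induced by the cascade and dampen it, as do the phosphatase DUSP6 and the membrane protein IL17RD, while the ETS factors ETV4 and ETV5 are transcribed in response to it. In the testis, FGF ligands from somatic cells are known to sustain spermatogonial stem cells (SSCs), and FGF2 is a standard component of SSC culture medium. FGF9 is also known for its part in the development of the fetal testis.

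The analysis used 8259 control cells and 9268 Cnot3-cKO cells with median depths of 14475 and 13150 unique molecular identifiers (UMIs), and the 2 libraries shared 18 called barcodes. Levels are UMIs of a gene per 1000000 UMIs of all cells of a class in a library (CPM). Brackets give exact Poisson intervals of 95% for a level and exact conditional intervals of 95% for a ratio, which cover counting error only. One UMI marks 1 tagged transcript end, so levels were not divided by length, and they are compared between classes and not between genes. The tags do not tell receptor splice forms apart. Clusters were named from marker lists with the 9 genes and their pathway kept out of the clustering. This gave 318 control and 312 Cnot3-cKO SSC-like cells, 284 and 19 Progenitor-like cells, and 358 and 60 Differentiating-like cells. A further germ cluster of 160 and 73 cells, led by Prss50, Esx1 and Dmrtb1, met no stage name and is called late germ here. Its leading genes mixed Meioc, a meiotic marker, with Esx1 and Dmrtb1, which are markers of the differentiating list. The cluster led by Prss50 and Esx1 was named differentiating at resolution 1.0 and meiotic with libraries centred before clustering. Somatic classes were Sertoli-like (2885 and 4362), myoid-like (1264 and 1591), stroma-like (2109 and 2113), cycling interstitial (328 and 223), endothelial-like (37 and 42) and macrophage-like (55 and 63). Each germ class had all 8 germ markers in at least 10% of its cells, at a summed 2435 to 2999 CPM. The 8 stromal markers, at 9608 to 9821 CPM in stroma-like cells, summed to 67.9 to 117 CPM in germ classes. In myoid-like cells these stromal markers were also high, at 5264 CPM in control and 5716 CPM in Cnot3-cKO. The 8 myoid markers summed to 4888 and 4146 CPM in myoid-like cells, against 778 and 686 CPM in stroma-like cells.

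Different clusters held most SSC-like cells of each genotype. A cluster led by Lhx1 and Foxc2 held 316 control and 36 Cnot3-cKO cells, and a cluster led by Nefm, Krt18 and Eomes held 2 and 276. A pair of germ clusters led by stromal genes (123 and 49 cells) or Sertoli genes (91 and 47 cells) were left out of the germ stages.

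Cnot3, the targeted gene (chr7:3645268-3661109, GRCm38), was checked first. In germ-like cells of all stages it was at 70.1 CPM in control (3269 UMIs) and 37.6 CPM in Cnot3-cKO (795 UMIs), which is -0.90 on the log2 scale [-1.01 to -0.79]. The ratio was 0.08 in Sertoli-like, 0.00 in myoid-like and -0.03 in stroma-like cells. Cnot3 tags were thus fewer in germ cells and nearly level in these somatic classes. Tags of the 3′ end may lie outside the deleted part and do not measure recombination.

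The members differed in where they were highest among the classes listed above. These classes leave out a mixed somatic cluster high in both Sertoli and stromal markers (234 cells in control, 300 in Cnot3-cKO). Also left out is an unnamed somatic cluster with Rmst and Pax8 as leading genes (13 cells in control, 14 in Cnot3-cKO). In the mixed cluster Frs2 was at 26.3 CPM in control and 30.1 CPM in Cnot3-cKO. The Cnot3-cKO value was above each listed class of that library, though its interval overlapped that of stroma-like cells. No other member was above each listed class there. In the Rmst-led cluster Fgfr2, Fgf9, Spry1, Spry2 and Frs2 were above each listed class of the same library. Fgfr1, a receptor that binds FGF2 and is common in mesenchyme (chr8:25513654-25575718), was highest in stroma-like cells, at 118 CPM in control and 57.5 CPM in Cnot3-cKO. Fgfr2 (chr7:130162451-133123350) was highest in myoid-like cells, at 59.7 and 54.6 CPM. Fgfr3 (chr5:33721674-33737068) was highest in endothelial-like cells, at 19.6 and 43.1 CPM from 12 and 24 UMIs. Fgf2 (chr3:37348346-37410108) was highest in myoid-like cells, at 43.5 and 50.7 CPM. Fgf9 (chr14:58070547-58112720) was highest in SSC-like cells, at 5.39 and 6.16 CPM.

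Among the same classes the Sprouty genes divided. Spry1 (chr3:37639947-37644598) was highest in myoid-like cells, at 172 CPM in control and 180 CPM in Cnot3-cKO. Spry2 (chr14:105891947-105896819) was at 29.9 to 35.3 CPM in myoid-like, stroma-like and cycling interstitial cells, whose values overlapped between libraries, so these 3 classes have no order. Spry4 was highest in myoid-like cells, at 19.1 and 16.04 CPM, followed by SSC-like cells at 11.96 and 12.11 CPM, which overlapped with cycling interstitial cells at 12.7 and 10.9 CPM. Frs2 (chr10:117069427-117148534) was the most even member. Its lowest class mean was 13.2 CPM in Progenitor-like cells and its highest 28.2 CPM in stroma-like cells, and 8 of the 9 pairs of neighbors in its order overlapped between libraries.

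**Figure D1:**
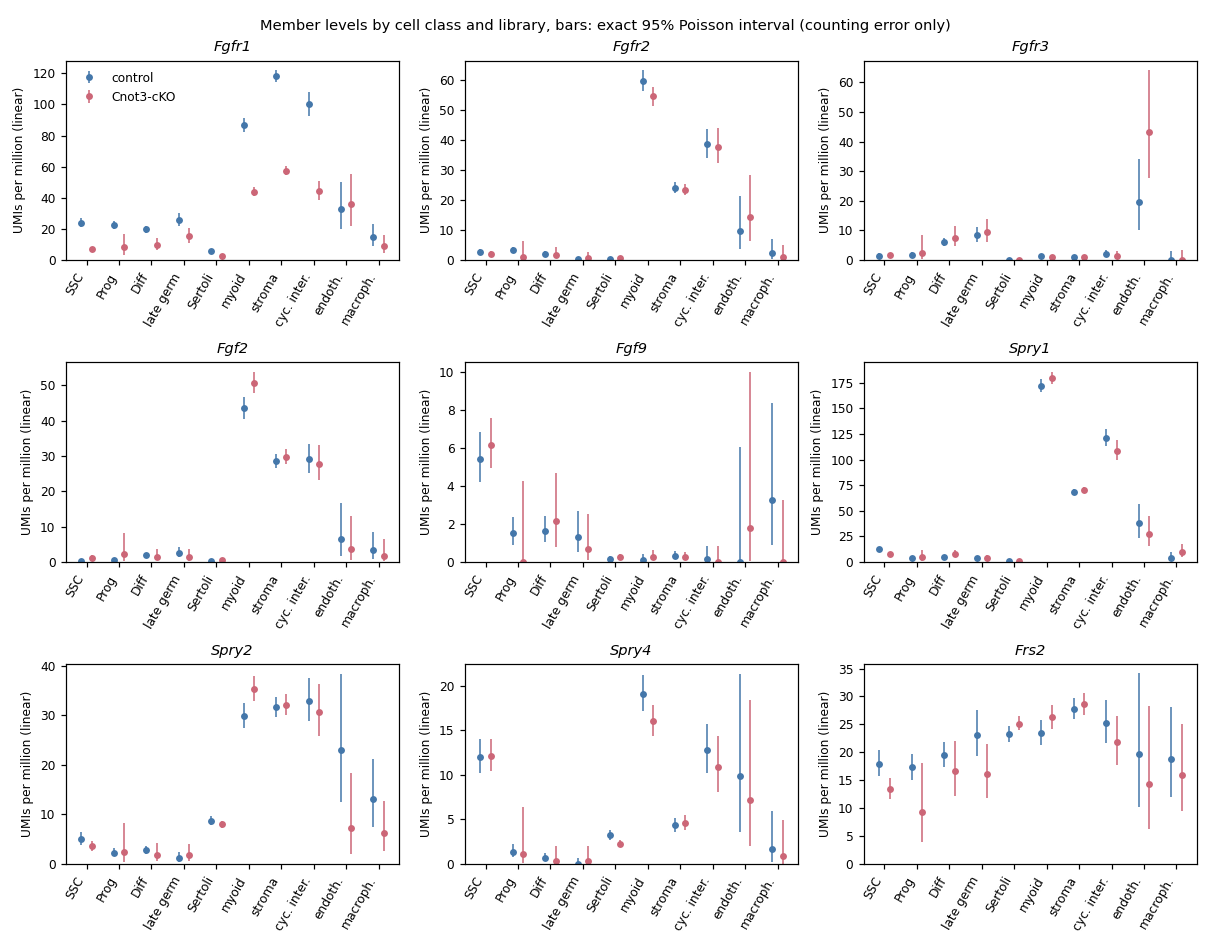
Level of each of the 9 genes (y axis, CPM on a linear scale from 0) in 10 cell classes (x axis), with control in blue and Cnot3-cKO in red. Bars are exact Poisson intervals of 95%. Fgfr1 is the member whose 2 libraries stand apart in most classes, from 118 against 57.5 CPM in stroma-like cells to 5.74 against 2.77 CPM in Sertoli-like cells.

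Fgfr1 was lower in Cnot3-cKO in germ cells and in the 4 largest somatic classes. In SSC-like cells it was at 23.9 CPM in control [21.3 to 26.8] and 6.91 CPM in Cnot3-cKO [5.63 to 8.40], from 306 and 101 UMIs. The level was 3.46-fold lower, a log2 ratio of -1.79 [-2.13 to -1.46]. In Progenitor-like cells it was at 22.4 and 8.05 CPM, the latter from 7 UMIs. In Differentiating-like cells it was at 19.7 and 9.72 CPM, a log2 ratio of -1.02 [-1.65 to -0.45], and in late germ cells at 25.7 and 15.4 CPM, a log2 ratio of -0.74 [-1.27 to -0.24]. The intervals of the 2 libraries did not overlap in any of these 4 germ classes. Under the filters stated in the methods, which left 66 and 8 Differentiating-like cells, the ratio of that class turned to 0.55. With the same filters the SSC-like ratio was -3.20, from 72 and 36 cells.

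The 4 largest somatic classes had log2 ratios near that of Differentiating-like cells, which rested on 27 Cnot3-cKO UMIs. The SSC-like ratio of -1.79 [-2.13 to -1.46] was lower, and its interval lay below those of these 4 somatic classes. Stroma-like cells held 3506 and 1619 Fgfr1 UMIs, 118 CPM [114 to 122] and 57.5 CPM [54.8 to 60.4], a log2 ratio of -1.04 [-1.13 to -0.95]. Myoid-like cells were at 86.7 and 43.8 CPM, a log2 ratio of -0.99 [-1.10 to -0.87]. Sertoli-like cells, the class with the least Fgfr1, were at 5.74 and 2.77 CPM, a log2 ratio of -1.05 [-1.35 to -0.76]. Cycling interstitial cells were at 100.1 and 44.4 CPM, a log2 ratio of -1.17 [-1.41 to -0.94]. The small classes rested on few UMIs. Endothelial-like cells were at 32.7 and 35.9 CPM from 20 UMIs in each library, with an interval of -0.83 to 1.11. Macrophage-like cells had 14.7 CPM in control and 8.80 CPM in Cnot3-cKO from 18 and 10 UMIs, and the interval of their ratio includes 0 (-0.74 [-2.02 to 0.45]). Even the barcodes of at most 100 UMIs, which carry free RNA, were at 34.8 and 18.3 CPM.

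Cluster by cluster, Fgfr1 was past 1.5-fold lower in 17 of 18 clusters with at least 20 cells of each library, with log2 ratios from -1.86 to 0.14 and a median of -1.0047. For Cnot3 the count was 4 of 18, with a median of 0.00. Fgfr1 was among genes chosen by their levels in these data, so its place among all genes is a description and not a test. The 4 classes compared next also come from the same 2 libraries. Of 9594 genes with at least 100 UMIs in each of the germ-like, Sertoli-like, myoid-like and stroma-like classes, 2 genes (0.0208%) were past 1.5-fold lower in all 4, Fgfr1 and Clasrp. Another 7 genes (0.073%) were past 1.5-fold higher in all 4, namely Fos, Fosb, Nr4a1, Slc38a9, Tdrd3, Dis3 and Tbc1d4. Tdrd3, Dis3 and Tbc1d4 lie on chromosome 14, and Clasrp lies on chromosome 7, as does Cnot3. Of the 19 genes within 500 kb of Fgfr1 with at least 100 UMIs in stroma-like cells, 0 were past 1.5-fold, and their log2 ratios ran from -0.24 to 0.49, the highest at Letm2, which lies 2.77 kb away. Clasrp, Letm2 and the genes higher in all 4 classes other than Fos were named after their values were seen. Each genotype is 1 library, so genotype, animals and library cannot be told apart for this drop.

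**Figure D2:**
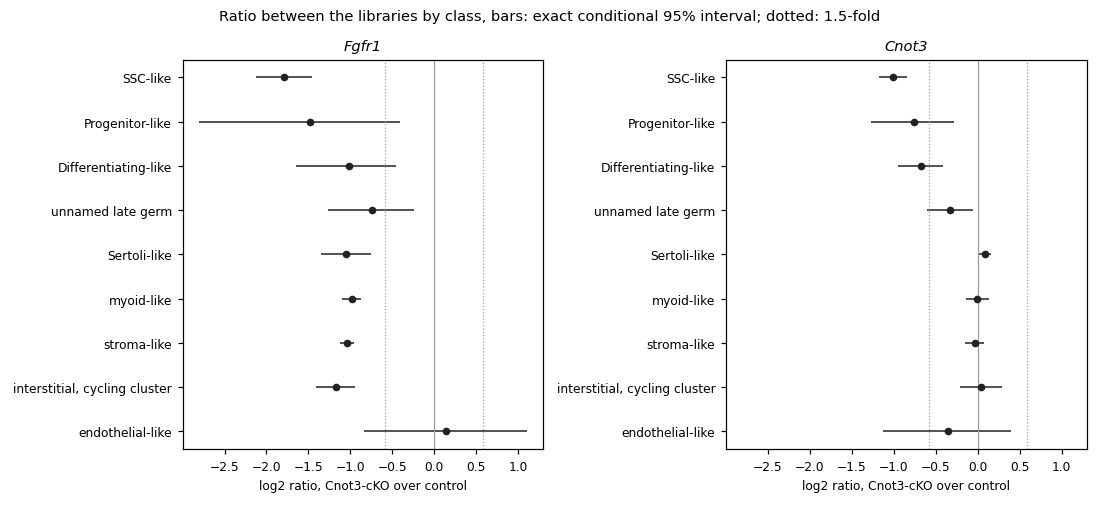
Log2 ratio of Cnot3-cKO over control (x axis) for Fgfr1 (left) and the targeted gene Cnot3 (right) in 9 cell classes (y axis). Bars are exact conditional intervals of 95%, and dotted lines mark 1.5-fold. Fgfr1 lies near -1.04 in stroma-like and -1.05 in Sertoli-like cells, where Cnot3 lies near 0, and at -1.79 in SSC-like cells, where Cnot3 is at -1.01.

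Cells with a Fgfr1 UMI changed in the same direction. With each cell thinned to 5000 UMIs, 44.0% of control stroma-like cells and 25.3% of Cnot3-cKO ones had a UMI, against 76.5% and 50.4% unthinned. For SSC-like cells the thinned shares were 10.1% (exact interval 6.99% to 13.9%) and 3.85% (2.003% to 6.62%), and the unthinned shares 55.0% and 25.96% at median depths of 39934 and 46204 UMIs. Sertoli-like cells, the class with the lowest level, had 3.12% and 1.26% thinned at median depths of 13287 and 12759 UMIs. The interval of the Cnot3-cKO SSC-like share includes the control Sertoli-like share.

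The other receptors did not follow Fgfr1. Fgfr2, the receptor of epithelial and mesenchymal FGF ligands, was at 59.7 and 54.6 CPM in myoid-like cells, a log2 ratio of -0.13 [-0.25 to -0.01], and at 24.2 and 23.4 CPM in stroma-like cells, a log2 ratio of -0.04 [-0.20 to 0.11]. Myoid-like cells held 2.47-fold more than stroma-like cells in control and 2.33-fold more in Cnot3-cKO. In SSC-like cells Fgfr2 was at 2.66 and 1.99 CPM, from 34 and 29 UMIs, and the interval of their ratio includes 0 (-0.42 [-1.19 to 0.34]). Sertoli-like cells had 0.362 and 0.534 CPM.

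Fgfr3 was higher in the later germ classes. SSC-like cells were at 1.49 CPM in control and 1.57 CPM in Cnot3-cKO, from 19 and 23 UMIs. Differentiating-like cells were at 6.03 and 7.56 CPM, from 96 and 21 UMIs, and late germ cells at 8.33 and 9.43 CPM. The level thus lay 4.06-fold higher in Differentiating-like than in SSC-like cells in control (log2 2.02 [1.3005 to 2.81]) and 4.80-fold higher in Cnot3-cKO (log2 2.26 [1.34 to 3.18]). Within a class the libraries overlapped, with log2 ratios of 0.08 [-0.86 to 1.04] in SSC-like and 0.33 [-0.43 to 1.02] in Differentiating-like cells. Thinned shares of cells with a Fgfr3 UMI were 3.35% and 5% in Differentiating-like cells, against 0.0347% and 0.0459% in Sertoli-like cells, and 22.9% and 26.7% against 0.104% and 0.0917% unthinned, with median depths in Differentiating-like cells of 44200 and 46614 UMIs. Endothelial-like cells, where Fgfr3 was highest, had a log2 ratio of 1.14 [0.08 to 2.27] from 12 and 24 UMIs, which was 0.01 with cells thinned to 5000 UMIs.

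Of the ligands, Fgf2 was a gene of the interstitium in these cells. Stroma-like cells were at 28.5 and 29.7 CPM, a log2 ratio of 0.06 [-0.08 to 0.20], and myoid-like cells at 43.5 and 50.7 CPM, a log2 ratio of 0.22 [0.09 to 0.36]. A myoid-like cluster led by Ltbp2, with 2 control and 90 Cnot3-cKO cells, was at 104 CPM in its Cnot3-cKO cells, and without it the myoid-like Fgf2 ratio was 0.15. Fgf2 was low in germ cells, with 55 control UMIs (1.18 CPM) and 28 Cnot3-cKO UMIs (1.33 CPM) over all stages. SSC-like cells had 5 control UMIs (0.391 CPM) and 18 Cnot3-cKO UMIs (1.23 CPM), a log2 ratio of 1.66 [0.17 to 3.44], and Sertoli-like cells had 0.362 and 0.434 CPM. Like Fgfr3, Fgf2 was higher in Differentiating-like than in SSC-like cells of control, 4.66-fold from 29 and 5 UMIs (log2 2.22 [0.83 to 3.95]), while in Cnot3-cKO it was 1.17-fold higher from 4 and 18 UMIs (log2 0.23 [-1.80 to 1.83]).

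Fgf9 was highest in SSC-like cells among the listed classes. These had 69 UMIs in control, 5.39 CPM [4.20 to 6.83], and 90 UMIs in Cnot3-cKO, 6.16 CPM [4.95 to 7.57]. Differentiating-like cells had 1.63 and 2.16 CPM, from 26 and 6 UMIs. The level was 3.304-fold higher in SSC-like than in Differentiating-like cells in control (log2 1.72 [1.05 to 2.43]) and 2.85-fold higher in Cnot3-cKO (log2 1.51 [0.33 to 2.9958]). Sertoli-like cells had 0.145 and 0.234 CPM, and thus 37.3-fold and 26.4-fold less than SSC-like cells. Between the libraries SSC-like cells differed by a log2 ratio of 0.19 [-0.28 to 0.67]. Thinned shares with a Fgf9 UMI were 2.83% and 3.85% in SSC-like cells (17.9% and 20.5% unthinned). In Sertoli-like cells they were 0 of 2885 cells, which by the limit of 3 counts allows up to 0.104%, and 0.115% (0.208% and 0.298% unthinned).

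In control the inhibitors were also higher in SSC-like than in Differentiating-like cells, most steeply Spry4. Spry4 was at 11.96 CPM in control SSC-like cells [10.1 to 14.0] and 12.1 CPM in Cnot3-cKO ones [10.4 to 14.0], from 153 and 177 UMIs, a log2 ratio of 0.02 [-0.30 to 0.34]. That ratio was -1.04 under the stated filters, 0.51 with libraries centred before clustering and 0.58 with cells thinned to 5000 UMIs, so its direction was not settled. Progenitor-like cells were at 1.36 and 1.15 CPM and Differentiating-like cells at 0.628 and 0.360 CPM, from 10 UMIs and 1 UMI. In control the SSC-like level was 19.1-fold the Differentiating-like level (log2 4.25 [3.33 to 5.34]), and in Cnot3-cKO the log2 ratio was 5.07 [2.58 to 10.38] against that 1 UMI. Late germ cells had 0 and 1 UMI. After thinning, 5.03% and 8.01% of SSC-like cells had a Spry4 UMI (32.4% and 35.6% unthinned), against 0 of 358 Differentiating-like cells in control, which allows up to 0.838%, and 0 of 60 in Cnot3-cKO, which allows up to 5% (2.23% and 1.67% unthinned).

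Spry1 had a lower ratio between the libraries than Spry4 in SSC-like cells of the main setting, though the intervals of the ratios overlapped. It was at 12.2 CPM [10.4 to 14.3] in control SSC-like cells and 8.08 CPM [6.68 to 9.67] in Cnot3-cKO ones, from 156 and 118 UMIs. This was 1.51-fold lower, a log2 ratio of -0.59 [-0.95 to -0.24], just past the 1.5-fold limit. Over the alternatives the ratio ran from -0.71 to -0.22, with -0.35 at resolution 1.0 and -0.22 with libraries centred before clustering, both short of 1.5-fold. Within the Lhx1-led cluster alone, Spry1 was at 12.3 CPM in 316 control cells and 13.2 CPM in 36 Cnot3-cKO cells, the latter from 20 UMIs [8.09 to 20.5]. In the Nefm-led cluster it was at 7.48 CPM [6.07 to 9.12] in 276 Cnot3-cKO cells, and these 2 Cnot3-cKO intervals overlapped. In Differentiating-like cells Spry1 was at 4.65 and 7.56 CPM, from 74 and 21 UMIs. The SSC-like level was therefore 2.62-fold the Differentiating-like level in control (log2 1.39 [0.98 to 1.81]) and 1.07-fold in Cnot3-cKO (log2 0.10 [-0.58 to 0.84]). Fgfr1, by contrast, was at 23.9 CPM [21.3 to 26.8] in the control cells of the Lhx1-led cluster. It was at 8.61 CPM in the Cnot3-cKO cells of that cluster, from 13 UMIs [4.58 to 14.7], and at 6.72 CPM in those of the Nefm-led cluster.

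Spry2 was at 5.003 and 3.49 CPM in SSC-like cells and 2.70 and 1.80 CPM in Differentiating-like cells, and its ratio between libraries in SSC-like cells was -0.52 [-1.08 to 0.03]. Outside the germ line, Spry4 was at 3.23 and 2.27 CPM in Sertoli-like cells, a log2 ratio of -0.51 [-0.86 to -0.15], and Spry2 had a log2 ratio of 0.24 [0.08 to 0.40] in myoid-like cells. The adaptor Frs2 was at 17.9 and 13.3 CPM in SSC-like cells, a log2 ratio of -0.42 [-0.71 to -0.14], and at 23.2 and 25.1 CPM in Sertoli-like cells, a log2 ratio of 0.12 [0.00 to 0.24].

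**Figure D3:**
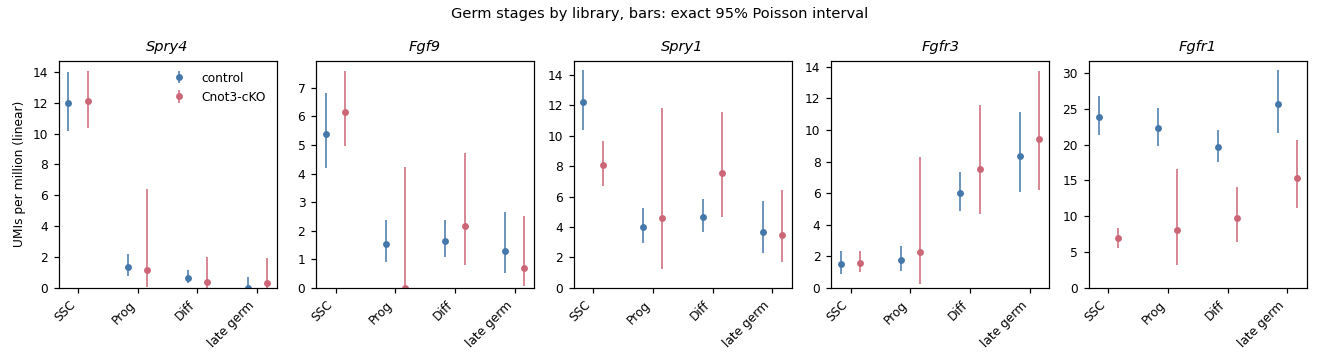
Levels (y axis, CPM, linear from 0) of Spry4, Fgf9, Spry1, Fgfr3 and Fgfr1 in SSC-like, Progenitor-like, Differentiating-like and late germ cells (x axis), control in blue and Cnot3-cKO in red, with exact Poisson intervals of 95%. Spry4 falls from 11.96 and 12.11 CPM to 0.628 and 0.360 CPM between SSC-like and Differentiating-like cells, Fgfr3 lies the other way, and Fgfr1 is lower in Cnot3-cKO in each of the 4 stages.

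In all, 3 of 6 members with at least 100 UMIs were past 1.5-fold higher in SSC-like than in Differentiating-like cells in control (Spry1, Spry2 and Spry4) and 1 was lower (Fgfr3), where 29.2% of all genes tested were past 1.5-fold in either direction. In Cnot3-cKO 1 of 4 was higher (Spry4) and 0 were lower, where 29.6% of all genes were past it. Fgf9 had under 100 UMIs over both stages in each library. The other feedback inhibitors and targets of the pathway were mostly higher in SSC-like cells too, with 11 of 12 measured genes past 1.5-fold higher in control and 9 of 12 in Cnot3-cKO, and Ccnd1, a cyclin of G1, lower in each. Dusp6 was at 47.4 and 50.4 CPM in SSC-like cells against 2.39 and 1.44 CPM in Differentiating-like cells. Etv5, an ETS factor needed to maintain SSCs, was at 46.3 and 39.3 CPM against 4.58 and 1.80 CPM. The markers that named SSC-like cells include the receptor genes Gfra1 and Ret, and which signal set the levels of these targets was not tested.

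The upstream sequences of Fgf9 and Spry1 are shown as examples of members whose germ line maximum in control lay in SSC-like cells, which Spry2 and Spry4 shared, and ETS factors, whose DNA core is GGAA, are the transcription factors of this pathway. Both are the 250 bases before the RefSeq start site (GRCm38.p6), printed 5′ to 3′ on the strand of the gene, with GGAA on either strand (TTCC on the other) in capitals. The Fgf9 window, chr14:58072436-58072685 on the plus strand, lies in an intron of a longer annotated Fgf9 transcript. The Spry1 window, chr3:37639697-37639946 on the plus strand, lies outside Spry1 and overlaps the exon of Gm42922, a transcript of the minus strand.
Fgf9: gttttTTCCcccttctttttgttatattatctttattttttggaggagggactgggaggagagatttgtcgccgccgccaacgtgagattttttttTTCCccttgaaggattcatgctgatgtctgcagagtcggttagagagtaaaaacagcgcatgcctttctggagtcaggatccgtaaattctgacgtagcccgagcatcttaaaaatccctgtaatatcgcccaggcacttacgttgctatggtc
Spry1: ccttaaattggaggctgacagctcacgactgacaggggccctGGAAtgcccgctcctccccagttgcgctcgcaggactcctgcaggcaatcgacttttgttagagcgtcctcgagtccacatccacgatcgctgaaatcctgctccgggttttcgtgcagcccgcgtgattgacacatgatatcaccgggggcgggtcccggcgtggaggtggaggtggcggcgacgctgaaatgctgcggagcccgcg

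The Fgf9 window holds 2 cores, both on the opposite strand, and the Spry1 window 1 on the same strand. Such cores are common, since 93.4% of the 32851 promoter windows of this length hold at least 1. The longer motif CCGGAA, which contains the core, was in neither window and in 12% of all windows on either strand. A match is a description of letters and not of binding. The table held windows for 7 of the 9 members.

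The counts within each class were as follows. In SSC-like cells 6 of the 9 members had at least 100 UMIs over both libraries, and 2 of them were past 1.5-fold, both lower (Fgfr1 and Spry1), where 13.2% of all genes tested were past that fold. In Differentiating-like cells 1 of 3 was past it (Fgfr1, lower), where 5.94% of genes were. In Progenitor-like cells, of which Cnot3-cKO had 19, 2 of 2 were past it (Fgfr1 and Frs2, both lower), from 7 and 8 Cnot3-cKO UMIs and where 18.1% of genes were. In late germ cells 1 of 2 was (Fgfr1, lower), against 2.34% of genes. In Sertoli-like cells 1 of 5 was (Fgfr1, lower), against 2.1% of genes. In myoid-like cells the count was 1 of 7 (Fgfr1, lower), against 2.79%, in stroma-like cells 1 of 7 (Fgfr1, lower), against 1.62%, and in cycling interstitial cells 1 of 7 (Fgfr1, lower), against 1.72%. The median log2 ratio of the members measured was -0.47 in SSC-like, -0.14 in Sertoli-like, 0.06 in myoid-like and 0.04 in stroma-like cells, beside 0.06, 0.04, -0.01 and -0.02 over all genes tested. Members below 100 UMIs are not in these counts. Outside Fgfr1, members in stroma-like cells with at least 100 UMIs had log2 ratios from -0.04 to 0.09.

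**Figure D4:**
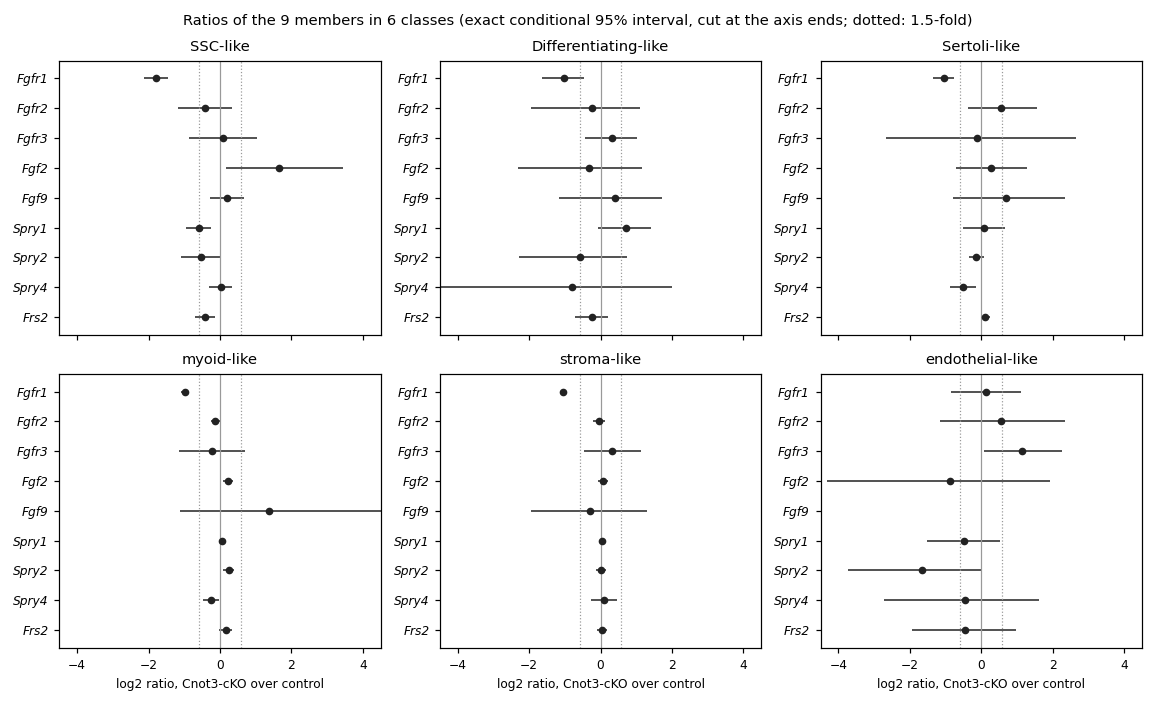
Log2 ratio of Cnot3-cKO over control (x axis) for the 9 genes (y axis) in 6 cell classes. Bars are exact conditional intervals of 95%, cut where they leave the axis, and dotted lines mark 1.5-fold. Fgfr1 is past 1.5-fold lower in 5 of the 6 panels and at 0.14 in endothelial-like cells, and Fgf9 has no ratio there because 1 library has 0 UMIs.

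Over germ-like cells of all stages the picture was different, with 3 of 8 measured members past 1.5-fold, where 11.1% of all genes were, and a median of -0.10 beside 0.02. Fgfr1 was lower, at 22.3 and 8.47 CPM, a log2 ratio of -1.39 [-1.63 to -1.16]. Spry4 was higher, at 3.86 and 8.52 CPM from 180 UMIs in each library, a log2 ratio of 1.14 [0.84 to 1.45], and Fgf9 was higher, at 2.60 and 4.64 CPM, a log2 ratio of 0.84 [0.44 to 1.23]. Within SSC-like cells neither was past 1.5-fold, as given above. Of the germ-like cells, 28.4% were SSC-like in control and 67.2% in Cnot3-cKO, and these gave 27.4% and 69.2% of the germ-like UMIs. With the control stage levels weighted by the Cnot3-cKO stage mix, a calculation chosen after seeing the data, control would stand at 8.41 CPM for Spry4 and 4.18 CPM for Fgf9, which leaves log2 ratios of 0.02 and 0.15. SSC-like cells held 153 of the 180 control and 177 of the 180 Cnot3-cKO Spry4 UMIs. The weighted Spry4 ratio therefore largely repeats the SSC-like ratio, whose direction was not settled. For Fgfr1 the weighted ratio was -1.47. Under the stated filters, which kept 214 and 60 germ-like cells, the Spry4 ratio turned to -0.39.

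Of the known targets past 1.5-fold, all but Fos moved in the same way with the weighting. In germ-like cells of all stages 5 of 14 measured feedback inhibitors and targets were past 1.5-fold higher and 0 lower, where 11.1% of all genes were past it either way, with a median log2 ratio of 0.28 beside 0.02 over all genes. Dusp6 was at 15.3 and 35.5 CPM, a log2 ratio of 1.22 [1.07 to 1.37], Etv4 at 18.8 and 30.6 CPM (0.70), Etv5 at 15.7 and 28.1 CPM (0.84), and Phlda1, a target with a pleckstrin homology domain, at 4.25 and 8.19 CPM (0.95). With the stage mix of Cnot3-cKO, these log2 ratios were 0.09 for Dusp6, -0.19 for Etv4, -0.23 for Etv5 and -0.10 for Phlda1. Fos, an immediate-early gene, was at 6.93 and 19.8 CPM, and its ratio of 1.51 was 1.13 with that mix. Fos was also higher in Sertoli-like (0.73), myoid-like (2.51) and stroma-like cells (2.16), and Egr1, another immediate-early gene, in stroma-like cells (1.09). Immediate-early genes are known to rise during tissue dissociation, and the part of handling in these values was not tested. Spred3 (17 and 19 UMIs) and Myc (8 and 11 UMIs), both under 100 UMIs in germ-like cells, had log2 ratios of 1.3027 and 1.60.

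**Figure D5:**
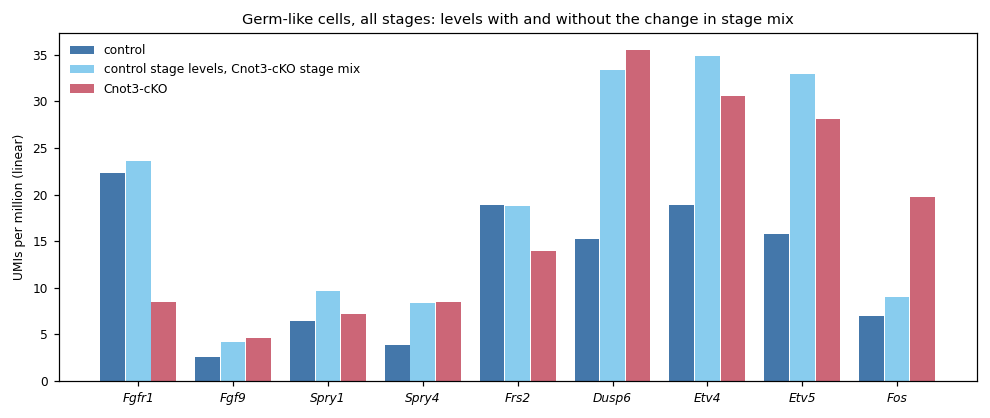
Levels (y axis, CPM, linear from 0) of 9 genes in germ-like cells of all stages. Bars show control (dark blue), control stage levels weighted by the stage mix of Cnot3-cKO (light blue) and Cnot3-cKO (red), with no error bars. For Spry4 the 3 bars stand at 3.86, 8.41 and 8.52 CPM, and for Fgfr1 at 22.3, 23.6 and 8.47 CPM.

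The rest of the pathway is read against the same 11.1% of genes past 1.5-fold in germ-like cells. Of the 21 adaptors and Ras-MAPK genes, all measured in germ-like cells of all stages, 0 were past 1.5-fold, with a median log2 ratio of -0.14. In Sertoli-like, myoid-like and stroma-like cells 0 of 21 were, where 2.1%, 2.79% and 1.62% of all genes were. In SSC-like cells 1 of 21 was higher (Frs3) and 1 lower (Sos2), where 13.2% of all genes were past it either way. Map2k2, which encodes the kinase MEK2, was the most abundant of them in germ-like cells, at 269 and 208 CPM. Of 17 heparan sulfate genes measured in germ-like cells, 2 (near the 11.1% of all genes) were past 1.5-fold lower, Ext2, a polymerase of the chain, at 19.7 and 12.02 CPM, and Hs6st1, a sulfotransferase, at 4.91 and 2.98 CPM. With the Cnot3-cKO stage mix the log2 ratio of Ext2 was -0.55 and that of Hs6st1 -0.08. Sdc4, a heparan sulfate proteoglycan, led this list in SSC-like (555 and 473 CPM), Progenitor-like and Sertoli-like cells (603 and 562 CPM), and Gpc3, a glypican, in stroma-like cells (390.3 and 332 CPM). In Differentiating-like cells Sdc4 was at 96.3 and 36.4 CPM, a log2 ratio of -1.40 [-1.71 to -1.11]. Sdc3 had 62 and 16 UMIs in germ-like cells, under the minimum.

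Of 4 other receptors and co-receptors measured in germ-like cells, 2 were past 1.5-fold lower, a count of few genes beside 11.1% of all genes. Fgfrl1, an FGF receptor that lacks the kinase domain, had 23.4 CPM in control and 13.1 CPM in Cnot3-cKO (log2 ratio -0.84 [-1.03 to -0.65]). In SSC-like cells it was at 18.0 and 10.2 CPM (-0.82), whereas in Sertoli-like cells it was at 21.6 and 24.4 CPM and in stroma-like cells at 21.2 and 23.0 CPM. Unlike Fgfr1 it was therefore not lower in these somatic classes. Flrt1, a transmembrane protein that binds FGF receptors, had 7.55 CPM in control germ-like cells and 4.83 CPM in Cnot3-cKO ones (0.00 on the log2 scale with the Cnot3-cKO stage mix). It led the list in Sertoli-like, myoid-like and stroma-like cells. Fgfbp3, a secreted FGF-binding protein, was highest in endothelial-like control cells (24.5 CPM), and in Cnot3-cKO ones it and Fgfrl1 were both at 34.1 CPM.

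Of 20 other FGF ligands, 4 had at least 100 UMIs in germ-like cells, and 1, Fgf12, was past 1.5-fold higher, at 2.81 and 4.92 CPM, where 11.1% of all genes were past it either way. With the Cnot3-cKO stage mix its log2 ratio of 0.81 was -0.09. Fgf12 and Fgf13 encode FGF homologous factors, which act inside the cell. Fgf12 led the list in SSC-like cells (7.11 and 6.50 CPM), Fgf22 in Progenitor-like cells, Fgf13 in Differentiating-like (16.8 and 16.2 CPM) and Sertoli-like cells (28.4 and 35.7 CPM), and Fgf7, a mesenchymal ligand, in stroma-like cells (10.7 and 12.2 CPM). Fgf8, a secreted ligand, was at 4.93 CPM in SSC-like cells of both libraries.

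The genes most like each member over 18 points, 9 classes with at least 20 cells in each of 2 libraries, were found among 9901 genes by Pearson's r of log2(CPM + 1). The points share libraries and depth, so r is a description. Fgfr2 and Spry1 were most like Eva1b (r = 0.98 for each), and Fgfr2 itself was among the 3 genes most like Spry1 (0.97), after Fam20c (0.98). Des and Stc2 followed for Fgfr2 (0.98 each). Fgf2 was most like the collagen genes Col11a1 and Col5a1 and like Dact3 (0.98 each). Fgfr3 was most like Hey1 (0.96), Ebf3 and Apln (0.95 each), and Spry2 most like Pwwp2a, Slc25a24 and Snai2 (0.96 each). Spry4 was most like Myl4, Dnajc10 and Il17rd (0.89 to 0.91), Fgf9 like Slc16a11, Spsb3 and Ovol2 (0.89 to 0.91), Fgfr1 like Mrc2, Rplp1 and Mfap2 (0.90 to 0.92), and Frs2 like Alg6, Tmem161a and Lrig1 (0.86 to 0.87).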

How the data were processed

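Testis cells at day 8 were profiled with the 10x Genomics 3′ kit. The authors deposited UMI counts, not normalized, from Cell Ranger 3.0.1 on build mm10, in 1 matrix a genotype that holds both its samples, so samples and sequencers could not be separated. Genes were placed by gene ID on GENCODE M21 (GRCm38).

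Cells were barcodes above the order-of-magnitude threshold for 3000 expected cells (7976.8 and 7664.4 UMIs; 8341 and 9336 cells), with at most 20% mitochondrial UMIs. The study's filters (10%, mean plus or minus 2 SD) left 5615 and 6034 cells and few germ cells, and were an alternative. Scrublet called 5.98% and 4.86% doublets, which stayed in the main set. Cells were clustered with scanpy 1.11.5 (2500 variable genes, 30 components, 15 neighbours, Leiden resolution 0.5), and germ clusters again. A name needed 3 markers in 10% of cells at 2-fold; the scoring was settled on these data. Genes named are the 9 members, Cnot3, genes of 5 pathway lists past 1.5-fold in germ-like cells with an interval off 0 or highest in a class, and the 3 most alike per member. The members and lists were chosen with earlier results of these data known. Shares used cells thinned to 5000 UMIs and exact Clopper-Pearson intervals; 3 counts set the limit of a 0. The intervals were run on simulated Poisson counts, the model they assume, so that run does not cover variation between cells, animals or libraries.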

Additional observations from a re-analysis of the deposited data

Results flagged for a closer look

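A signal appeared in cells that no comparison used. A cluster of 13 control and 14 Cnot3-cKO cells, led by Rmst, Pax8 and Sox17, met no class name. Fgfr2 was at 287 CPM in its control cells and 455 CPM in its Cnot3-cKO cells, from 64 and 117 UMIs, above each class of the report in the same library. Fgf9 was at 121 and 77.8 CPM, from 27 and 20 UMIs, against at most 5.39 and 6.16 CPM in SSC-like cells. Spry1 was at 256 and 206 CPM there (57 and 53 UMIs), Spry2 at 49.4 and 50.6 CPM (11 and 13 UMIs) and Frs2 at 31.4 and 46.7 CPM (7 and 12 UMIs), each above every class of the report in the same library, though the intervals of these 3 genes reach levels of those classes in at least 1 library. Germ markers were low there, at a summed 31.4 and 3.89 CPM, while the 8 Sertoli markers summed to 1732 and 1794 CPM, against 13110 and 13320 CPM in Sertoli-like cells. The myoid markers summed to 983 and 412 CPM, the endothelial markers to 417 and 463 CPM and the stromal markers to 310 and 591 CPM. What these cells are was not tested.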

How the results depend on the processing

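No paired analysis was possible because the 2 samples of a genotype are merged in 1 matrix, and for the same reason no sample could be left out. The number of members past 1.5-fold among those with at least 100 UMIs moved with some settings. Under the stated filters it was 0 in SSC-like, 0 in Differentiating-like and 1 in germ-like cells of all stages. With cells thinned to 5000 UMIs it was again 0, 0 and 1, since fewer members kept 100 UMIs. With resolution 1.0, or the mean of CPM over cells, it was 1 in SSC-like cells. A minimum of 20 UMIs gave 3 in Differentiating-like and 2 in Sertoli-like cells, and no minimum above 3 UMIs gave 4, 2 and, in myoid-like cells, 2. These lower minimums admit members with few UMIs, such as Fgf9 with 6 and 14 UMIs in Sertoli-like cells. At the minimum of 100 UMIs, 5.94% of all genes were past 1.5-fold in Differentiating-like and 2.1% in Sertoli-like cells. The shares at the other settings are not given here, so these counts are not read as a result about the members. Weighting control stages as in Cnot3-cKO gave 1 in germ-like cells. The SSC-like over Differentiating-like log2 ratio of Fgf9 in control was 2.72 under the stated filters, and that of Fgfr3 in Cnot3-cKO was -3.96 after thinning. A pair of ratios reversed under the stated filters, Fgfr1 in Differentiating-like cells (0.55) and Spry4 in germ-like cells of all stages (-0.39), from 8 and 60 Cnot3-cKO cells; the cause was not tested. The Fgfr1 ratios in stroma-like and myoid-like cells kept their direction in all alternatives run, from -1.05 to -0.99 and from -1.04 to -0.98. Leaving out doublet calls, centring on the median gene and leaving out mitochondrial genes moved none of the results past its interval.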
